A study of Caenorhabditis elegans with 2 samples.

Results

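Of the 2703 TRA-1 binding sites that the authors listed from both replicates, 283 had their summit within 100 bp of a nuclear tRNA gene of *Caenorhabditis elegans*. Within that list these sites were chosen by position alone, using the tRNA genes of the Ensembl annotation of WBcel235. Neither signal nor the replicates' own lists entered this step. The list itself held only peaks that passed the authors' threshold for repeatable peaks, made from both replicates. Some agreement between replicates was therefore built into every site. Between them the 283 sites lay near 292 of the 612 nuclear tRNA genes, because 274 sites had 1 tRNA gene within 100 bp and 9 had 2. The samples were 2 biological replicates of 1 group. They came from strain DZ840, whose allele ez72 on chromosome III joins a tag of biotag, GFP, TEV and 3xflag to tra-1. The tag was inserted at the tra-1 gene itself by CRISPR, so TRA-1 was mapped in its tagged form. Whole animals were collected as L4 larvae aged 48 h, after synchronisation by bleaching and starvation at the L1 stage, and their sex was not recorded. Chromatin was sonicated and precipitated with an antibody against GFP, and the DNA was sequenced. An untagged or differently staged group was not analysed here, so every value below describes this 1 group, and whole animals give no cell type. Depth is unknown, since the files are peak lists without read counts. Signal here means the value the authors gave each peak, and it was used to rank sites inside a list.

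TRA-1, a DNA-binding protein with zinc fingers of the GLI kind, is the last step of somatic sex determination in the worm. Transfer RNA genes are transcribed by RNA polymerase III, not by the polymerase that makes messenger RNA. Their promoter lies inside the gene, as box A and box B, which the factor TFIIIC binds, and a run of T after the gene ends transcription. Each tRNA carries the amino acid that names its isotype, and its anticodon of 3 bases pairs with the codon.

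The sequences below show what the sites lay on. They were read from the WBcel235 assembly of RefSeq in the direction of transcription, with box A and box B in capitals. Box A was searched as TGGCNNAGT with at most 2 mismatches in its 7 defined letters, and box B as GTTCGANNC with at most 1 in its 7, on the transcribed strand only. Of all 612 nuclear tRNA genes, 99.2% held box A so defined and 99.8% held box B, so a match does not mark the genes with a site. The first set shows 3 genes under strong sites, for Ala on chromosome V, for Val on X and for Leu on X. The Leu gene is 119 bases long, against a median of 72 over all tRNA genes.
F44A2.t1: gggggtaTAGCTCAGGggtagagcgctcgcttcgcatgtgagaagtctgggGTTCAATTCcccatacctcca
R04D3.t2: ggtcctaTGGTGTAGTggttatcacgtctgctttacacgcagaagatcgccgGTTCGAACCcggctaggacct
C04A11.t1: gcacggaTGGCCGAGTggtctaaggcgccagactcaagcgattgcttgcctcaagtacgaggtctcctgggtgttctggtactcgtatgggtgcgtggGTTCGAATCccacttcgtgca

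The second set shows pairs of tRNA genes with the same sequence, where the first gene of each pair had a strong site and the next had none, nor any peak within 100 bp in the authors' ranked list. Each is printed with 40 bases before the gene and 20 after it, and the first TTTT after the gene is also in capitals. The Ala pair is F15G9.t1 (chrX:9743549-9743680, plus strand) and B0491.t2 (chrII:11333993-11334124, minus strand). The Lys pair is C33G3.t2 (chrX:14063926-14064058, minus strand) and F18C5.t1 (chrII:6565208-6565340, plus strand). The Arg pair is C18A11.t2 (chrX:8036665-8036797, minus strand) and C03A3.t1 (chrX:11252570-11252702, minus strand). Within each pair the gene is the same in every base, and the flanks are not.
F15G9.t1: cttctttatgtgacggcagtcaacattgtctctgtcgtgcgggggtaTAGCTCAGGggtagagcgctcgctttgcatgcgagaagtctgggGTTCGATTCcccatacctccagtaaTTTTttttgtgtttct
B0491.t2: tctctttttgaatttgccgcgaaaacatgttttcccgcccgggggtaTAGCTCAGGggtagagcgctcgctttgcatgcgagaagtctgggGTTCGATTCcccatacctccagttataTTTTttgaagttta
C33G3.t2: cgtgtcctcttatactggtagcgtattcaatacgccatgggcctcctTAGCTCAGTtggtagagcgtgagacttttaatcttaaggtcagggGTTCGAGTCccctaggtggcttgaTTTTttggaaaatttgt
F18C5.t1: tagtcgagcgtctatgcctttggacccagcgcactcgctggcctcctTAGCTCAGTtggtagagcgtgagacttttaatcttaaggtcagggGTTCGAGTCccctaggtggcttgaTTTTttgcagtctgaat
C18A11.t2: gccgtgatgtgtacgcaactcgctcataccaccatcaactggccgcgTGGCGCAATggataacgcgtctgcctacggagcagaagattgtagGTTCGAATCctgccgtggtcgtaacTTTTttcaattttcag
C03A3.t1: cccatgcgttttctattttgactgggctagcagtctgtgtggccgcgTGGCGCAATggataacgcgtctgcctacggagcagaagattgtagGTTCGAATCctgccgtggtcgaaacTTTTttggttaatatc

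The strongest of the 283 sites lay on M02F4.t1, a Gly gene at chrX:3036164-3036235. Its signal was 359, and in each replicate's own ranked list the peak there had a signal of 186.1 in replicate 1 and 167.8 in replicate 2. It ranked 40 among all 2703 sites, so every stronger site of the series lay away from tRNA genes. Next came F41D9.t3, an Asn gene at chrX:8404499-8404571, with a signal of 323 (177.6 in replicate 1 and 129.9 in replicate 2). F15G9.t1, the Ala gene printed above, had 319.5 (166.5 and 150). T04D3.t2, a Gly gene at chrI:13331147-13331218, had 317 (172.4 and 133.7). These 3 genes lie in introns of protein-coding genes: F41D9.t3 in sulp-3, F15G9.t1 in him-4, which encodes the extracellular matrix protein hemicentin, and T04D3.t2 in gcy-35, which encodes a soluble guanylate cyclase. C33G3.t2, the Lys gene printed above, had a signal of 295.8 (161.4 and 129.6). The site at T23F1.t1, a Lys gene at chrV:15465086-15465158, had 285.2 (142.4 and 138.1), and its summit lay between that gene and T23F1.t2. F44A2.t1, the Ala gene of chromosome V printed above, had 266.2 and was higher in replicate 2 (137.4) than in replicate 1 (106.5). R04D3.t2, the Val gene, had 252.9 and nearly equal replicates (126.8 in replicate 1 and 126.6 in replicate 2). C18A11.t2, the Arg gene, had 243.2 (138.7 and 118.5). T23H4.t1, a Glu gene on chromosome I, had 240.8 (126 and 89.4), the largest ratio of replicate 1 to replicate 2 among the 12 strongest. C04A11.t1, the Leu gene, had 239.1 (137.2 and 106.7), and C28G1.t1, a Glu gene on X, had 237.7 (119.5 and 118). The C18A11.t2 summit lay 4576 bp upstream of xol-1, the switch gene at the top of the sex determination pathway, which was the nearest protein-coding start. A link to xol-1 was not tested. Among the 12, the shortest distances to a coding start were at C28G1.t1 (63 bp, C28G1.2) and F44A2.t1 (106 bp, kvs-3). T04D3.t2 (248 bp, T04D3.5) and T23F1.t1 (501 bp, pqn-71) came next. Each of these 12 strongest sites was in both replicates' own thresholded lists, and replicate 1 was the higher at all but F44A2.t1.

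The signal of the 283 sites ran from 27.1 to 359, with a median of 124 and quartiles of 96.3 and 152. The other 2420 sites had a median of 104, quartiles of 84.5 and 143, and a highest value of 895. The median tRNA site stood at percentile 63.6 of the main list by signal, but the direction turned in stricter or single lists. It was at percentile 46 among sites with an irreproducible discovery rate (IDR, which falls as a peak becomes more repeatable) of at most 0.001, and at 47.9 in the list of replicate 1. In the list of replicate 2 it was at 56.8. Of them, 30.7% were in the strongest 25% of the main list (95% Wilson interval 25.7 to 36.3%) and 15.5% in the weakest 25% (11.8 to 20.2%). These intervals, and all others here, cover counting error only, and sites of pooled lists are not replicate samples. The lowest signals belonged to H35N09.t1 (Gln, X, 27.1), W09G10.t2 (Lys, II, 52.1) and Y92C3A.t3 (Ile, III, 70.2). The first pair each overlapped a stronger site whose summit lay 200 and 199 bp away, with signals of 162.4 and 127.3. Because support was counted by overlap, H35N09.t1 counts as found in both replicates' lists, although its own signal was the lowest. Only 4.24% of the tRNA sites overlapped another site of the main list, against 9.63% of the other sites.

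About as many sites at tRNA genes were found in both replicates as in 1 or neither. Of the 283 sites, 143 (50.5%, 44.7 to 56.3%) overlapped a site in each replicate's own thresholded list, where 35.3% of all 2703 sites did. Another 34 were in the list of replicate 1 only, 46 in that of replicate 2 only, and 60 (21.2%) in neither, where 34.6% of all sites were in neither. Support followed the signal. In the strongest 25% of the main list, 82 of 87 tRNA sites (94.3%) and 91.8% of the other sites were in both lists. In the next 25%, 55 of 95 tRNA sites were in both (57.9%, 47.8 to 67.3%), against 36.8% of the other sites (33 to 40.8%). Below that, 7.02% and 4.55% of tRNA sites were in both, close to 4.52% and 4.59% of the others. In that second group the list of replicate 2 held 77.9% of the tRNA sites and 51.8% of the others, and the list of replicate 1 held 76.8% and 76.2%.

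At tRNA sites the replicates had like peak signals, and at the other sites replicate 1 was the higher. A peak was present in both ranked lists at 278 of the 283 sites (98.2%) and at 98.6% of the other sites. The main list was thresholded on repeatable peaks, so high shares were set in part by its making. The median signal was 62.9 over the 280 sites with a peak in replicate 1, and 60.9 over the 281 with a peak in replicate 2. At the other sites the medians were 58.1 and 48.9. The log2 ratio of replicate 1 to replicate 2 had a median of 0.03 at tRNA sites (quartiles -0.25 and 0.37) and 0.25 at the other sites (quartiles -0.05 and 0.57). Replicate 1 was the higher at 54% of tRNA sites (48.1 to 59.7%) and at 71.6% of the others (69.8 to 73.4%). Within the strongest 25% these shares were 59.8% and 83.6%. Signals of separate lists may differ in scale, so the tRNA sites are set beside other sites of the same lists. Without the sites that overlap another, the median ratio was again 0.03 at tRNA sites, and 0.27 at the others. The 2 signals lay within 2-fold of each other at 97.5% of tRNA sites and 94% of the others. Their Spearman correlation over sites was 0.605 (n = 278), and 0.555 over the other sites (n = 2386), all from the same pair of libraries.

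**Figure D1:**
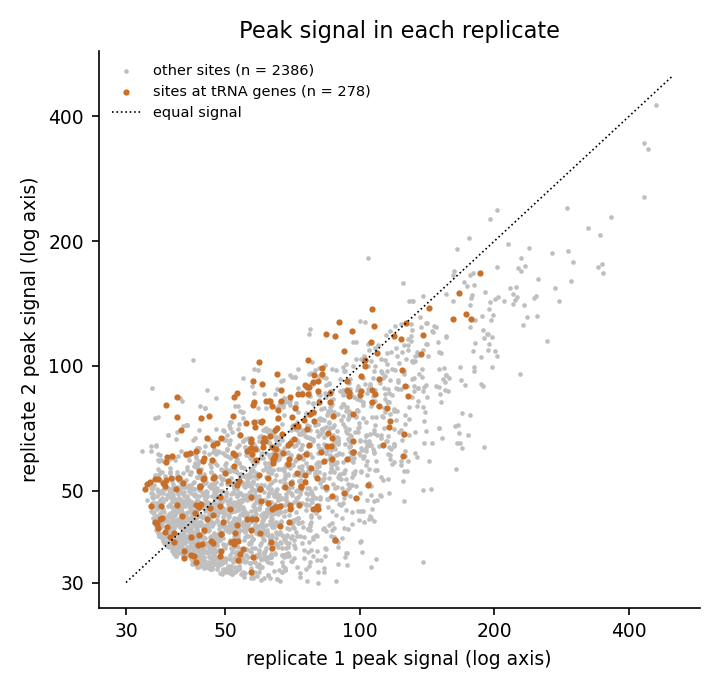
Peak signal of each main-list site in the ranked list of replicate 1 (horizontal, log axis) and of replicate 2 (vertical, log axis), for 278 sites at tRNA genes and 2386 other sites with a peak in both. Sites at tRNA genes lie about evenly around the line of equal signal (54% below it), and 71.6% of the other sites lie below it.

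A few sites stood apart between the replicates. The lowest ratios were at Y65A5A.t2 (Ala, IV; 36.9 in replicate 1 and 80.6 in replicate 2), C12C8.t2 (Gly, I; 38.9 and 84.3) and F28F8.t4 (Ser, V; 39 and 75.2). The highest were at the neighbours W09G10.t2 and W09G10.t3 on chromosome II, which share the same peak in each replicate (88 and 38), and at T15B12.t1 (Met, III; 125.2 and 60.7). No peak was found in the ranked list of replicate 2 at F31B12.t1 (Glu) and K09A11.t1 (Tyr), nor in that of replicate 1 at Y73B6BL.t1 (Val), F42F12.t1 (Leu) and ZC412.t2 (Cys).

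Summits lay on the genes themselves. Of the 283, 216 (76.3%, 71 to 80.9%) were inside the nearest tRNA gene, 51 (18%) before it and 16 (5.65%) after it. The median summit was 23 bp past the gene's first base, with quartiles of 6 and 42 bp, and it was 24 bp for genes on the plus strand and 22 bp on the minus strand. The middle of box A was at a median of base 12 of the gene, and that of box B at base 57. A summit between these middles was found at 166 sites (58.7%), and 185 (65.4%) were nearer to box A than to box B. The listed interval covered the whole tRNA gene at 276 sites (97.5%), which the 100 bp rule and the width given next largely fix. The lists limit how finely this can be read, since 265 of the 283 intervals had the same width of 304 bp with the summit at its middle. The 18 narrower sites, with signals from 155 to 359, had a median offset of 21.5 bp. The rule admitted summits up to 100 bp outside a gene. Just inside that limit, 6 sites lay 55 to 89 bp from the gene, with signals from 81.9 to 160. Just outside it, 12 sites lay 107 to 421 bp away, with signals from 6 to 180.

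**Figure D2:**
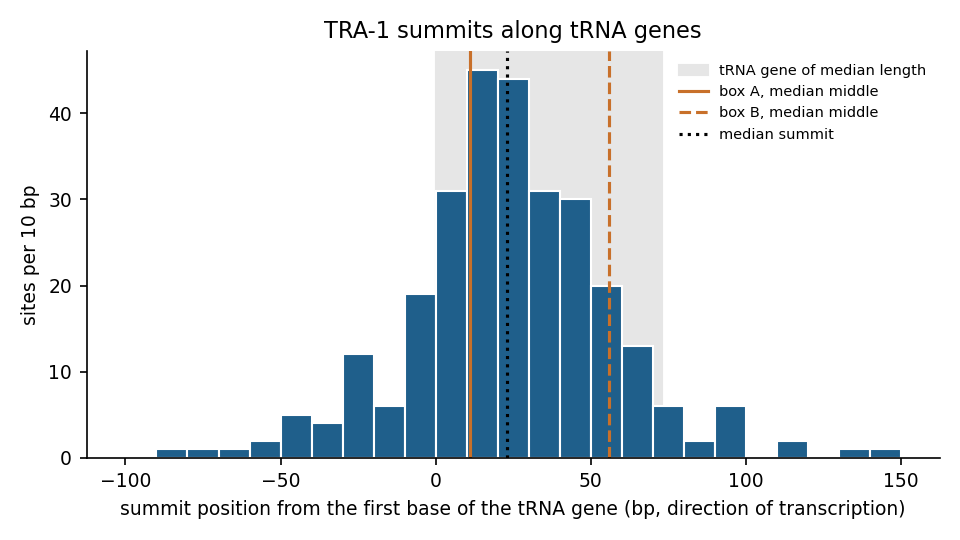
Number of sites per 10 bp of summit position (horizontal axis, bp from the first base of the nearest tRNA gene in the direction of transcription) for all 283 sites. The bars peak inside the gene near the median of 23 bp, between the median middles of box A and box B (vertical lines), and the shaded span is a gene of median length.

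Every isotype but selenocysteine was among the genes with a site. Thr, Val and Asp genes had the highest shares, at 23 of 34 (67.6%, 50.8 to 80.9%), 20 of 31 (64.5%) and 17 of 27 (63%), against 47.7% of all 612 genes. Cys (61.5%), Leu (59%), Lys (58.7%) and Met (55%) followed. The lowest were Trp at 3 of 12 (25%, 8.89 to 53.2%), Gln at 8 of 27 (29.6%), Asn at 6 of 20 (30%) and Pro at 14 of 42 (33.3%, 21 to 48.4%). For 4 of the 20 Asn genes, under 50% of the 50-base words in the gene and its flanks occur once in the genome. Among the other 16 the Asn share was 37.5%, above that of Tyr (36.8%), so Asn is then not among the 4 lowest. Most of these intervals include the overall share, and neighbours in the order do not differ beyond their intervals. The single selenocysteine gene and the 5 genes with no isotype given had no site. The order was only partly shared between lists. Over all isotypes, replicate 1 alone gave 32.5% and replicate 2 alone 35.5%. Asn was low in replicate 1 (15%), in replicate 2 (20%) and in the second thresholded list of both replicates (40%). Asp was high in each (51.9%, 44.4% and 66.7%). Trp had a site at 1 of 12 genes in replicate 1 and 5 of 12 in replicate 2. Thr had 47.1% in replicate 1 but 35.3%, close to the overall share, in replicate 2, where Lys had the highest share, 45.7%. Val had 25.8% in replicate 1 and 38.7% in replicate 2. By signal, median values ran from 95.7 at the 8 His sites to 157 at the 14 Ser sites.

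**Figure D3:**
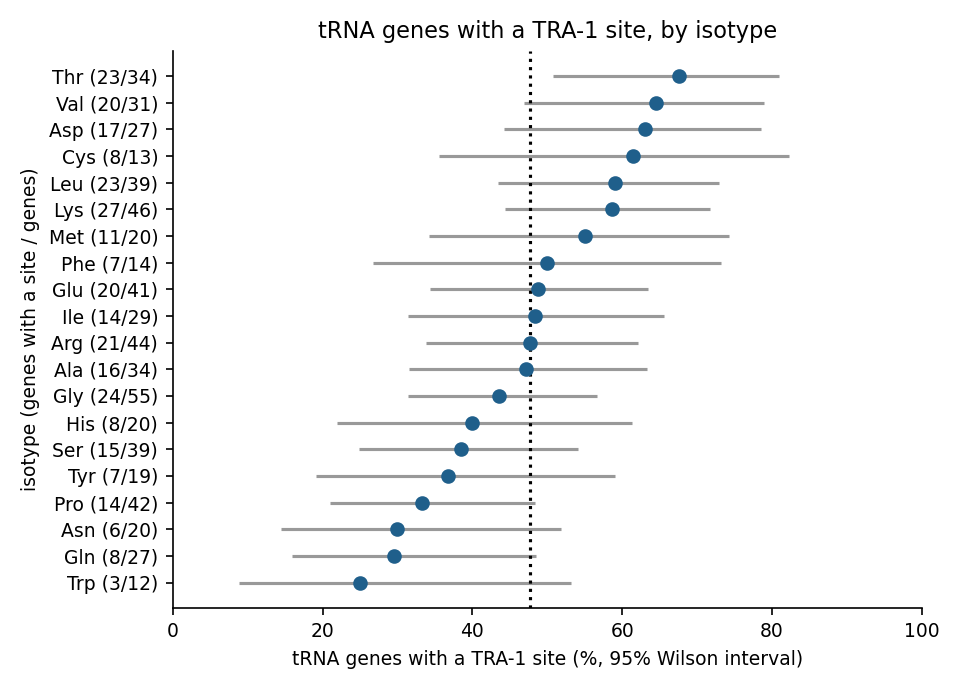
Percent of the tRNA genes of each isotype with a TRA-1 site (points, with 95% Wilson intervals as bars), for isotypes of 10 or more genes, and the share of all 612 genes as a dotted line at 47.7%. Thr has the highest share (67.6%) and Trp the lowest (25%), and most intervals cross the dotted line.

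The isotypes were also split by anticodon, and the splits given here were chosen after their values were seen. For Glu, 11 of 17 genes with the anticodon TTC had a site (64.7%) and 9 of 24 with CTC (37.5%, 21.2 to 57.3%). For Lys, 20 of 31 with CTT had a site (64.5%) and 7 of 15 with TTT (46.7%). For Gln, 5 of 19 with TTG (26.3%) and 3 of 7 with CTG (42.9%) had a site. In each of these the intervals overlap. For Leu the share was 50% with AAG (10 of 20), with CAA (2 of 4) and with TAA (2 of 4). It was 66.7% with TAG (2 of 3) and 80% with CAG (4 of 5). The other Leu genes, 1 each read as AAA, AAT and AGC, had a site, but these reads do not give Leu. The anticodon read from the loop matched the annotated isotype in 592 of 612 genes. Among the 20 where it did not, 4 had a site (20%, 8.07 to 41.6%). These 20 include the 5 genes with no isotype given, which could not match. Introns were not modelled in the reading. All 20 are of unique sequence. Where the anticodon of a unique gene did match, 46 of 123 had a site (37.4%, 29.4 to 46.2%), and the intervals overlap.

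Gene copies with the same sequence did not share their sites. Of the 612 genes, 469 fall into 57 groups of identical genes. In 46 groups some members had a site and some had none, in 6 all had and in 5 none had. The largest group, 29 Gly genes with the anticodon TCC, had 13 with a site, and the 25 Lys genes with CTT had 18. Among 24 Pro genes with TGG, 8 had a site, and among 18 Asn genes with GTT, 6 had. Genes with an identical copy had a site more often, at 242 of 469 (51.6%, 47.1 to 56.1%), than the 143 genes of unique sequence, at 50 (35%, 27.6 to 43.1%). The same order held in replicate 1 (35.6% and 22.4%), in replicate 2 (38.4% and 25.9%), on X (56.2% and 36.8%) and on the autosomes (47.6% and 33.7%). Reads from identical genes can be told apart only by their flanks, and how the authors placed them is not given in the sources used here. Words of 50 bases were taken from each gene together with 100 bp on each side. The share of them that occur once in the nuclear genome had a median of 84.4% at genes with a site and 84.8% at those without. Words inside a gene with identical copies lower this share. In 13 genes it was under 50%, and none of them had a site, with a 95% Wilson upper bound of 22.8%. Of those 13, 10 also had no ranked peak.

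Almost every gene carries both boxes of the internal promoter, so few genes show what lacking a box goes with. Of 606 genes with both boxes, 291 had a site (48%, 44.1 to 52%). Of 6 genes missing a box, 1 had, T04D3.t1 (Gly, signal 155.6), a share of 16.7% whose interval (3.01 to 56.4%) includes the overall 47.7%. By mismatches in box A, a site lay at 33 of 61 genes with none (54.1%, 41.7 to 66%), 200 of 407 with 1 (49.1%) and 58 of 139 with 2 (41.7%, 33.9 to 50%). These intervals overlap. For box B the shares were 49.2% with an exact match and 44.1% with 1 mismatch. Genes with TTTT within 20 bp after their end made up 602 of 612, and 289 of them had a site, as did 3 of the 10 without. The sequences of 2 of the 6 genes missing a box are printed as examples. T13B5.t2 (Thr, II, ranked peak signal 31.9) lacks box A, and ZK1010.t1 (Ser, III, 35.3) lacks box B. Neither of these 2 genes had a site. No capitals mark the missing box.
T13B5.t2: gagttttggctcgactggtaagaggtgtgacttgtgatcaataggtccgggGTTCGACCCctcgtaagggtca
ZK1010.t1: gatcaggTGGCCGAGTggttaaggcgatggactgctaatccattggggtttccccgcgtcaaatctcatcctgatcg

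tRNA pseudogenes, copies that no longer make a tRNA, had a site far less often than tRNA genes. RefSeq lists 209 tRNA pseudogenes, and 9 of them had a summit within 100 bp (4.31%, 2.28 to 7.98%), with signals from 78.2 to 195.4. None of those 9 summits was within 100 bp of an annotated tRNA gene. Over other classes of RNA genes the shares were 20.5% for small nucleolar RNA genes, 15.5% for small nuclear RNA genes and 2.68% for miRNA genes. For piRNA genes it was 12 of 15363 (0.0781%), and for rRNA genes 0 of 20, with a 95% Wilson upper bound of 16.1%.

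The TRA-1 core TGGGTGGTC, the sequence known for direct TRA-1 binding, was searched on both strands within 50 bp of each summit. No tRNA site held it exactly, with a 95% Wilson upper bound of 1.34%, and 8 of the 2420 other sites did (0.331%). With 1 mismatch allowed, 9 of 283 did (3.18%, 1.68 to 5.93%), where 2.15% of all 2703 sites did. Of those 9, 6 were at Leu genes, where 23 of all 283 sites were at Leu genes. Among the 6 was the 119-base C04A11.t1, where the gene sequence printed above itself holds such a match. How often Leu genes without a site hold one was not measured. The next words were picked in an earlier look at the same list, as frequent over all sites. TGATAAG, of the kind bound by GATA factors, lay within 50 bp of 1.06% of tRNA summits and 10.2% of others, CTCTCTC of 1.77% and 9.21%, and GAGACGC of 0.707% and 7.19%, both strands searched. With 1 mismatch allowed, the shares lay much closer together, at 29% and 34.8%, 30.4% and 36.7%, and 26.1% and 32.2%. Most sites of the list the words were picked from are the other sites. Since 76.3% of tRNA summits lie inside a tRNA gene, the sequence searched there, for the core and these words, includes much tRNA gene sequence. Shares at tRNA genes without a site were not measured, so these values do not set bound tRNA genes apart from other tRNA genes.

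The X chromosome held about as many of the sites as the autosomes together, and nearly that share of the tRNA genes. X had 141 of the 283 sites (49.8%, 44 to 55.6%), where 24.6% of all sites were on X, and 276 of the 612 tRNA genes (45.1%). The share of genes with a site was 52.2% on X (46.3 to 58%), 54.7% on III, 48.5% on I, 47.4% on II, 38% on IV and 34.6% on V (25 to 45.7%). Of all X sites, 21.2% were at tRNA genes, and on the autosomes the shares ran from 5.48% on II to 8.33% on III. Against 32.5% of all tRNA genes in replicate 1 and 35.5% in replicate 2, chromosome V had 19.2% and 21.8%, and chromosome II, which is near the overall share in the main list, had 22.8% and 24.6%. IV had 18.3% in replicate 1 (11 to 28.8%) and 38% in replicate 2 (27.6 to 49.7%). Within the autosomes the share was 44.1% in the central part of the chromosome and 44% in the outer parts. Median signals per chromosome ran from 107 on II to 128 on I, with 126 on X.

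Isolated tRNA genes on X had sites most often. On X, 90 of 141 genes with no other tRNA gene within 1000 bp had a site (63.8%, 55.6 to 71.3%), against 54 of 135 with a neighbour that close (40%, 32.1 to 48.4%). On the autosomes the order was the other way, at 97 isolated genes (41.3% of them, 35.2 to 47.7%) and 51 of 101 clustered genes (50.5%, 40.9 to 60%). Over all chromosomes the shares were 49.7% and 44.5%. The second thresholded list gave 70.2% and 42.2% on X, and 44.7% and 54.5% on the autosomes. Replicate 1 alone gave 50.4% and 28.9% on X, and 24.7% and 30.7% on the autosomes, and replicate 2 alone gave 47.5% and 29.6%, and 30.6% and 37.6%. Among genes where at least 50% of the 50-base words of gene and flanks occur once, the shares on X were 63.8% and 41.5%. The intervals of the X shares do not overlap in any of the 4 lists, and those of the autosomes do. The lists come from the same 2 libraries, the split by chromosome was made after the values were seen, and neighbours can share a site, so these genes are not independent.

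**Figure D4:**
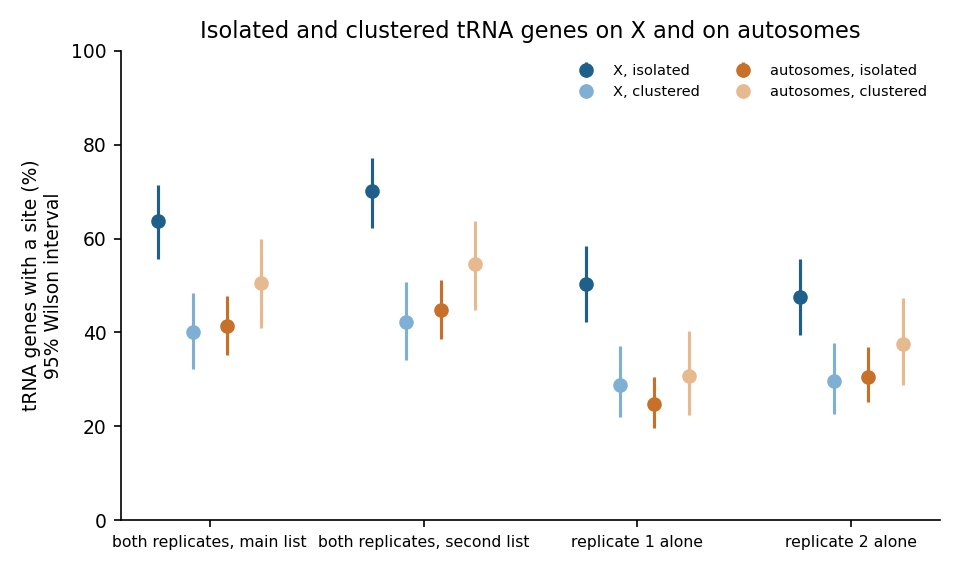
Percent of tRNA genes with a TRA-1 site (points, with 95% Wilson intervals) in 4 lists, for genes with no other tRNA gene within 1000 bp (isolated) and with one (clustered), on X and on the autosomes. Isolated X genes have the highest share in each list (63.8% in the main list), and clustered X genes sit at 40%.

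Of the clustered genes, 105 of 236 had a site (44.5%). The 236 clustered genes form 100 regions, of which 23 had a site at every gene, 28 at none and 49 at some. Pairs made up 78 of the regions, and 21 pairs had a site at both genes. In some of these, as at T23F1, 1 site within 100 bp of both genes counted for both. How many full regions the share of 44.5% alone would give was not computed. The most genes with a site in a single region were at Y65A5A on IV, where all 4 genes within 2584 bp had a site. Their signals were 83.4 at Y65A5A.t1 (Ala), 115.5 at Y65A5A.t2 (Ala), 74 at Y65A5A.t3 (Val) and 107.9 at Y65A5A.t4 (His). Replicate support was partial there. The sites at Y65A5A.t2 and Y65A5A.t4 were in the list of replicate 2 only, and that at Y65A5A.t1 was in neither list. On X, the 3 Lys genes K11E4.t4, K11E4.t5 and K11E4.t6 lie in an intron of pix-1, with signals of 74.2, 143.2 and 91.8. At F22F1 on X, 2 of 6 genes had a site, F22F1.t3 (Asp, 81.9) and F22F1.t6 (Met, 98). The first of these summits lay 89 bp before F22F1.t3, near the limit of the rule, and its site was in neither replicate's list. The site at F22F1.t6 was in the list of replicate 2 only. At F28H6 on X, 6 His genes within 1966 bp had 1 site among them (90.7). The sequences of a pair of genes from Y65A5A are printed to show that a single cluster can hold different isotypes under sites of like strength. Y65A5A.t1 has the sequence of Y65A5A.t2.
Y65A5A.t2: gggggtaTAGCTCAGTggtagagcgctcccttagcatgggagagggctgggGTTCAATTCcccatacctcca
Y65A5A.t4: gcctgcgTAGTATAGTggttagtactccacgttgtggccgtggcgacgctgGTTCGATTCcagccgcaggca

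The sites lay farther from the starts of protein-coding genes than the other sites did. The median distance to the nearest coding start was 1565 bp, against 1196 bp at the other sites. Of the 283, 55 (19.4%, 15.2 to 24.4%) lay in a coding promoter, taken from 1000 bp upstream to 200 bp downstream of the start, where 36.1% of all sites did. The rule placed these sites at tRNA genes, so where tRNA genes lie enters both the distance and this share. Neither was measured over all tRNA genes. Of tRNA genes between coding genes, 155 of 319 had a site (48.6%). In introns the share was 65 of 122 (53.3%, 44.5 to 61.9%) on the opposite strand to the host gene and 68 of 161 (42.2%, 34.9 to 50%) on the same strand. The 50 bp upstream of the gene had a median of 44% G and C at genes with a site (quartiles 39.5 and 50%) and 40% at genes without (34 and 46%).

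The 320 genes without a site were looked up in the authors' ranked list, which also holds peaks that did not pass the threshold. That list has 78883 peaks, and how often a peak lies within 100 bp of other positions was not measured. It had a peak within 100 bp of 176 of them (55%), with a median signal of 57.3 and a highest of 102. The IDR had a median of 0.147 at these and a lowest value of 0.0106, and it was at most 0.05 at 57 of the 320 genes (17.8%). At the other 144 genes no ranked peak was listed. The strongest were F57G8.t1 (Asn, V, 102.4), rtw-6 (Trp, IV, 98.6) and F22F1.t5 (Asp, X, 98.1). rtw-6 was in the list of replicate 2, F22F1.t5 in that of replicate 1, and F57G8.t1 in neither.

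**Figure D5:**
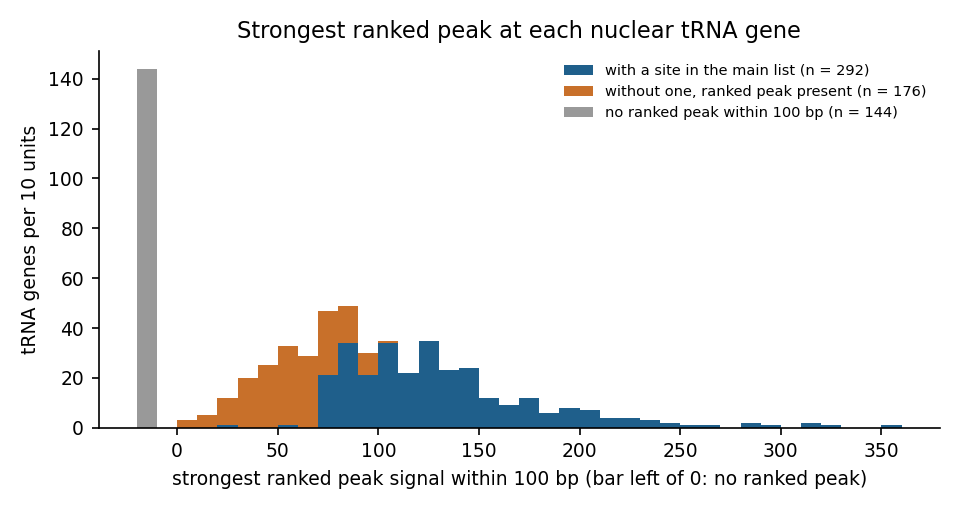
Strongest ranked peak signal within 100 bp of each of the 612 tRNA genes (horizontal axis, authors' units), stacked as genes with a site (292) and without (176), with the 144 that have no ranked peak as the bar left of 0. The genes without a site reach 102 at most and those with a site have a median of 124.

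Genes that act on tRNA were also examined. Of 32 aminoacyl-tRNA synthetase genes, which encode the enzymes that load tRNAs with amino acids, 5 had a summit between 2000 bp upstream of the start and the gene's end (15.6%, 6.86 to 31.8%), where 11.2% of all 19973 protein-coding genes did. These were ears-2 (signal 132.5, 54 bp upstream of the start), fars-1 (128.7), kars-1 (124.1, 960 bp upstream), aars-1 (93.6, 57 bp upstream) and nars-2 (75.6). The summit at fars-1 lay inside the tRNA pseudogene T08B2.t1, in the body of the gene. Of the 5, fars-1 was in both replicates' lists, ears-2, kars-1 and aars-1 in replicate 1 only, and nars-2 in neither. None of the 15 genes for RNA polymerase III subunits, its factors and related proteins, such as rpc-1, brf-1 and the TFIIIC genes tftc-1 and tftc-3, had a site, with a 95% Wilson upper bound of 20.4%.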

How the data were processed

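The data were peak lists on ce11, the sequence of WBcel235, from TRA-1 chromatin immunoprecipitation in 2 biological replicates of 1 group. Per the deposited descriptions, they were made from aligned reads of the replicates and a control, which was not analysed here. Aligner, peak caller, read length and the placing of reads with several matches were not given in the sources used here. The authors deposited a score for each peak, a whole number that rises as the IDR falls and was at least 830 in the main list, a signal and, in the ranked lists, the −log10 of the IDR. The signal ranked peaks within a list.

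The main list was the conservative thresholded list of 2703 sites. The second list held 3168, replicate 1 alone 1682 and replicate 2 alone 1355. Summits were compared with Ensembl release 115. All 612 nuclear tRNA genes had the same coordinates in RefSeq, which gave an isotype for 607, and 22 mitochondrial ones were left out. Replicate signals were those of the strongest overlapping peak in each replicate's own ranked list, and support was any overlap. Coordinates are 1-based. No test was run, since the design has 1 group, and shares have 95% Wilson intervals. The members and lists were chosen with earlier results of these data known, and the added alternatives after seeing the data. The genes named were the 12 strongest and 3 weakest sites, the 3 highest and 3 lowest replicate ratios, the 3 regions led by their number of tRNA genes with a site and then of tRNA genes, the 3 strongest ranked genes without a site and the tRNA supply genes with one. Others were named after their values were seen. The site assignment was tested on simulated data. The tools were Biopython 1.88, matplotlib 3.10.9, scipy 1.17.1, pandas 2.3.3 and numpy 2.4.6 under Python 3.11.15.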

Additional observations from a re-analysis of the deposited data

Results flagged for a closer look

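Beyond the main list, 39 tRNA genes had a site in a replicate's own thresholded list and none in the main list, 13 in that of replicate 1 only, 22 in that of replicate 2 only and 4 in both. Likewise 38 tRNA genes had a site in the second thresholded list of both replicates and none in the main list.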

How the results depend on the processing

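The main list gave 283 sites at 292 genes. The second list gave 306 sites, the 50 and 500 bp windows 277 and 295, and each replicate alone 189 to 208 sites at 199 to 217 genes. Stricter lists held fewer. An IDR of at most 0.001 left 185 sites at 193 genes, and the stronger part of the main list 182 sites at 189 genes, by construction. In these the share in both replicates' lists was 75.7% and 75.3%. The percentile of the median tRNA-site signal within its list, 63.6 in the main list, was 46 and 47.8, and 47.9 to 56.8 with each replicate alone, so it turned from above to below the middle of the list in all of these but replicate 2 alone. The share of summits inside a gene was 70.4 to 76% with each replicate alone, and 74.5% when any overlap of the interval counted. The cause was not tested. No paired analysis was possible because the series has 1 group. Depth is unknown, 2 replicates of 1 group allow no test between conditions, and identical genes limit where reads can be placed. Of the alternatives added after seeing the data, 1 left out genes with under 50% unique words in gene and flanks. It gave 48.7% of tRNA genes with a site.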
